A study of Mus musculus with 22 samples.

Results

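Ppara, Acaa1b, Acot1, Slc25a20 and G0s2 are a nuclear receptor of the liver and 4 genes of fat handling, and their RNA was followed in mouse liver over 48 h after an injection of interferon-gamma. They are 5 of 8251 genes measured, found by gene symbol among the probe sets that carry 1 symbol. The set was selected on measured values of these same arrays: Acaa1b, Acot1 and Slc25a20 were chosen by their lower level 12 h after interferon-gamma than in control livers, and the values behind the choice of Ppara and G0s2 are not recorded. The time courses of all 5 genes are therefore a description, given without a test, and tests on them are limited to vehicle against untreated livers and to the genotypes.

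Livers came from SOCS1-/-IFNg-/- mice, which lack the suppressor of cytokine signalling SOCS1 as well as interferon-gamma, and from IFNg-/- mice, which lack the cytokine alone. No liver in the series could make its own interferon-gamma, and none was wild type. In each genotype there was 1 liver sample without injection, 1 each at 4 and 12 h after intraperitoneal PBS (100 µl), and 1 each at 0.5, 1, 2, 4, 12, 16, 24 and 48 h after intraperitoneal recombinant interferon-gamma (4 µg in 100 µl). Each of these 11 conditions had 1 Affymetrix array per genotype, 22 in all, and the values are log2 expression. Age, sex and background strain are not given in the labels, nor is whether a liver sample was 1 mouse or a pool. Every p-value below therefore measures only the spread between these arrays.

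As a check of the labels, Socs1 read 6.57 to 7.02 on the 11 SOCS1-/-IFNg-/- arrays, and reached 9.21 at 2 h after interferon-gamma in IFNg-/- liver. Ifng stayed between 2.18 and 2.61 on all 22 arrays. Array medians ran from 5.64 to 5.71, and hepatocyte markers averaged 10.45 to 10.78 in SOCS1-/-IFNg-/- livers and 10.60 to 10.78 in IFNg-/- livers. The array that stood farthest from the rest was the SOCS1-/-IFNg-/- liver at 4 h after interferon-gamma, with a median correlation of 0.972 with the others. The log2 difference between 3′ and 5′ probe sets of the control transcripts, which grows as RNA degrades, was not raised there, at 0.33 for Actb, the lowest of all arrays, and 0.47 for Gapdh. The highest Gapdh difference was 1.16, in the SOCS1-/-IFNg-/- liver at 12 h after interferon-gamma (Actb 1.13), and the next was 0.85. For Actb the livers at 48 h after interferon-gamma were highest, 1.56 in SOCS1-/-IFNg-/- (Gapdh 0.83) and 1.33 in IFNg-/- (Gapdh 0.50). The untreated livers were close to the latter for Actb, at 1.31 and 1.32 in that order of genotype. The part of RNA quality in the 48 h values was not tested. In whole liver, fewer cells of a type and less RNA per cell cannot be told apart.

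PPARα, the product of Ppara, is a nuclear receptor that binds fatty acids and, paired with the retinoid X receptor, turns on genes that take up and oxidise them. In liver it is best known for the response to fasting, when fat becomes the main fuel. Acaa1b encodes a thiolase that performs the last step of β-oxidation in peroxisomes. Acot1 encodes a cytosolic thioesterase that splits acyl-CoA into fatty acid and coenzyme A. Slc25a20 encodes the carrier that brings acylcarnitine into mitochondria, and G0s2 encodes a small protein that inhibits the triglyceride lipase ATGL (gene Pnpla2). All of these are known as PPARα targets in mouse liver.

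The receptor pair binds 2 AGGTCA half-sites in direct repeat with 1 base between them, so the promoters of the members were searched for both forms. RefSeq promoter windows of build GRCm38.p6, 250 bases before to 50 after the annotated start, matched all 5 members. The 3 target genes whose levels were lowest at 12 to 16 h are shown here 5′ to 3′ on the strand of the gene, Acaa1b at chr9:119157044-119157343 on the minus strand, Acot1 at chr12:84009252-84009551 on the plus strand and Slc25a20 at chr9:108661886-108662185 on the plus strand. Capitals mark the only match to the direct repeat, with 2 mismatches allowed.
Acaa1b: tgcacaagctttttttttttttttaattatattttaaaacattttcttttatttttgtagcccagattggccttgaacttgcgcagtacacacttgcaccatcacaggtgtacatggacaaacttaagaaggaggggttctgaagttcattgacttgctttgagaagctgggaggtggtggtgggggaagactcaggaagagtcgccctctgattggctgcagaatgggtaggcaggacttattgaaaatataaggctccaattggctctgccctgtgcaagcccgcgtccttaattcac
Acot1: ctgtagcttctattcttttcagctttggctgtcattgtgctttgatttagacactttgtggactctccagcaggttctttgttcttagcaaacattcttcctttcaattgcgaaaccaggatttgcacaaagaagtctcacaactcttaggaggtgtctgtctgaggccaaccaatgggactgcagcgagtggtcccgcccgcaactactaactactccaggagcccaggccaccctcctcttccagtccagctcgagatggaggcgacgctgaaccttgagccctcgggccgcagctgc
Slc25a20: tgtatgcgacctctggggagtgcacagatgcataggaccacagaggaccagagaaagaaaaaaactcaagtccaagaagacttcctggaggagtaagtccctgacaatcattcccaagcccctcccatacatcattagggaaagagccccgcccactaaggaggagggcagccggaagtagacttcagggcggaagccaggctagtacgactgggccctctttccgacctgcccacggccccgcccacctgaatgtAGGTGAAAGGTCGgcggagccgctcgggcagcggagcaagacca
No member's window held an exact AGGTCA on either strand, a match that 16.3% of 32851 promoters in the table hold. The direct repeat with up to 2 mismatches matched in 1 of 5 members, Slc25a20, at bases 7 to 19 after the start, and in 3.86% of all promoters. With 1 mismatch allowed 0 of 5 members matched, against 0.554% of all promoters, and an exact repeat was found in 0 of 5 and in 0.0396%. A match is only a stretch of letters, and a window without one says nothing about binding elsewhere in the gene.

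Ppara itself was abundant, with a mean log2 level above that of 91.6% of genes, and 1 array stood out. In SOCS1-/-IFNg-/- livers the log2 level was 8.65 without injection, 8.33 and 8.51 at 4 and 12 h after PBS, and 8.65, 8.50, 8.33, 7.04, 8.07, 9.0, 7.95 and 8.70 at 0.5, 1, 2, 4, 12, 16, 24 and 48 h after interferon-gamma. In IFNg-/- livers it was 9.0 without injection, 9.41 and 8.57 after PBS, and 8.90, 8.63, 8.26, 9.31, 8.70, 8.83, 8.61 and 9.04 at those 8 times. The 4 h SOCS1-/-IFNg-/- liver lay far below every other array, while the 4 h IFNg-/- liver was among the highest. The lowest IFNg-/- value came earlier, at 2 h.

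At 4 h the SOCS1-/-IFNg-/- liver had 4.79-fold less Ppara RNA than the IFNg-/- liver, a log2 difference of -2.26. The other 10 pairs of genotypes differed by -1.08 to 0.17, and the widest of those was the pair of livers taken 4 h after PBS. Among all 8251 genes, 1 had a lower difference in the 4 h pair, and whether this pair entered the choice of Ppara is not recorded. Against vehicle of the same hour, Ppara at 4 h was lower by 1.29 in the SOCS1-/-IFNg-/- liver, and the difference was -0.10 in the IFNg-/- liver. At 12 h the same comparison gave -0.44 in the SOCS1-/-IFNg-/- liver and 0.13 in the IFNg-/- liver. There was 1 array behind each of these numbers, so no error can be set on the difference between the genotypes at 4 h.

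The mean response of both genotypes at 4 h, set against all 6 control arrays, was -0.57 ± 0.33 (SE) and rested on that liver. It became 0.40 without the SOCS1-/-IFNg-/- array at 4 h and -1.54 without the IFNg-/- array at 4 h. At the other times the mean response ran between -0.46 ± 0.33 at 24 h and 0.17 ± 0.33 at 16 h. Control livers of IFNg-/- mice varied by nearly as much, with a mean of 8.99 ± 0.42, and those of SOCS1-/-IFNg-/- mice by less, 8.50 ± 0.16 (SD, n = 3 each). The SOCS1-/-IFNg-/- livers at 12 and 24 h, 8.07 and 7.95, lay below their controls, which ran from 8.33 to 8.65.

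**Figure D1:**
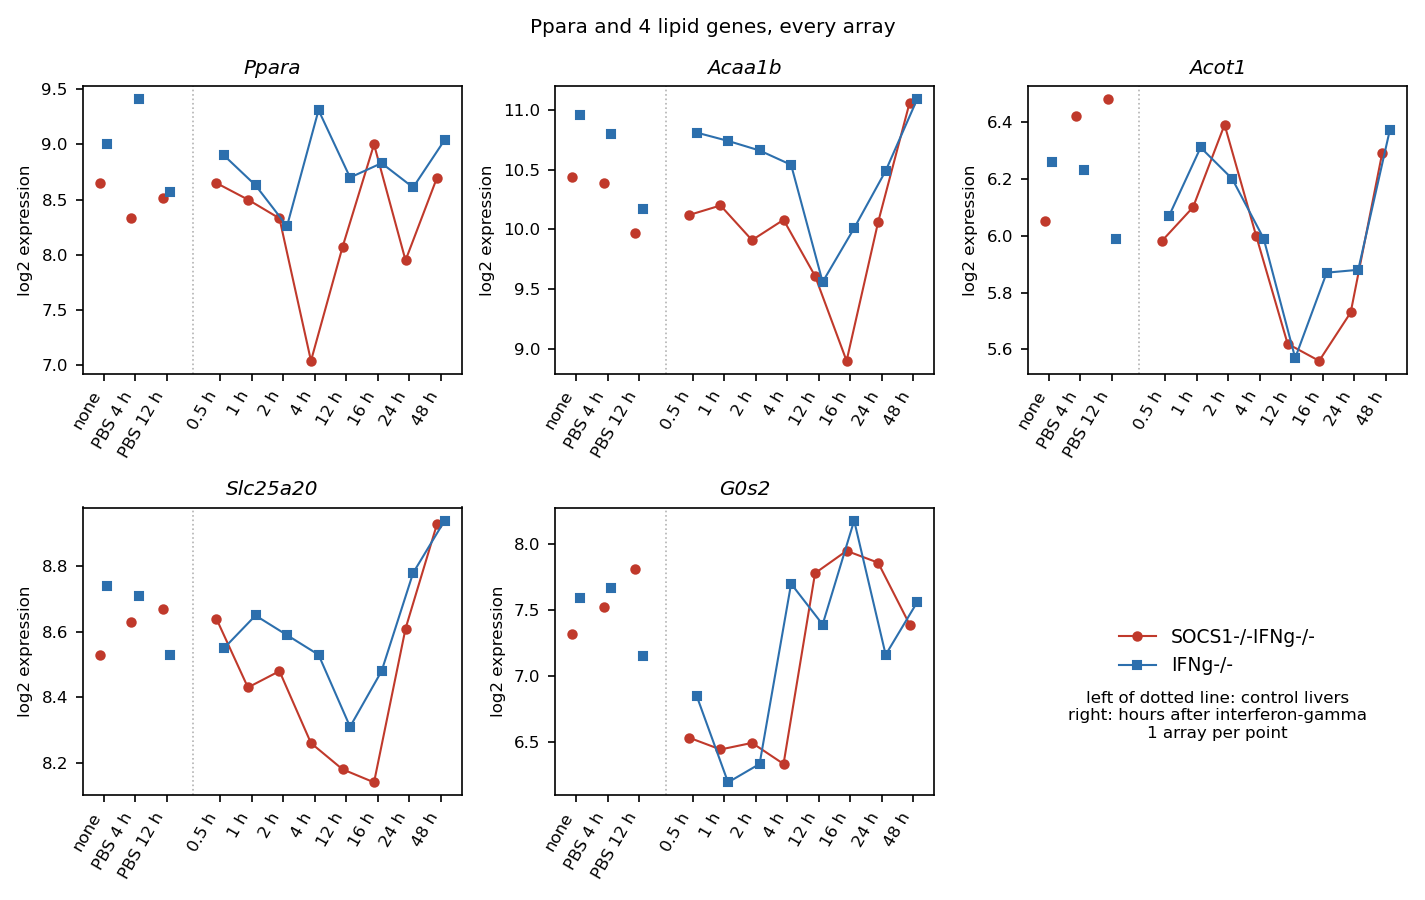
Each panel plots the log2 expression (y axis) of 1 member in every liver, with the 3 control conditions left of the dotted line and hours after interferon-gamma to the right (x axis, spaced evenly and not to scale), red circles for SOCS1-/-IFNg-/- and blue squares for IFNg-/-, 1 array per point and no error bars. Ppara reads 7.04 in the 4 h SOCS1-/-IFNg-/- liver, Acaa1b, Acot1 and Slc25a20 dip at 12 and 16 h, and G0s2 is low from 0.5 to 2 h.

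Several of the genes beside Ppara also set the 4 h livers apart. Nr1d1, the clock repressor REV-ERBα, read 7.21 in the SOCS1-/-IFNg-/- liver and 7.41 in the IFNg-/- liver 4 h after interferon-gamma, and 7.57 and 7.58 in the livers of those genotypes 4 h after PBS. On the remaining arrays it lay between 5.42 and 6.48 except in the IFNg-/- liver at 16 h, at 7.30. All 4 livers taken at 4 h, with and without the cytokine, thus shared a high Nr1d1. Other clock genes did not all group these livers. Dbp, a dim gene, read 4.74 and 5.12 in the SOCS1-/-IFNg-/- and IFNg-/- livers 4 h after PBS. At 4 h after interferon-gamma it read 4.16 and 5.09 in the same order. There Per2, dimmer still, read 2.54 and 2.92, and Arntl read 6.44 and 6.35. G6pc, the last enzyme of glucose release, read 7.12 in the SOCS1-/-IFNg-/- liver and 9.58 in the IFNg-/- liver at 4 h, and the 6 control arrays read 10.14 to 11.69. Its mean response at 4 h was -2.24 ± 0.39 (adjusted p = 0.00388, limma), that of the lipogenic factor Srebf1 -1.14 ± 0.22 (adjusted p = 0.00696) and that of the amino acid enzyme Tat -1.04 ± 0.16 (adjusted p = 0.00141), at a time when 5.03% of all genes were called. Without the SOCS1-/-IFNg-/- array the values were -1.24 for G6pc (adjusted p = 0.168), -1.18 for Srebf1 (0.104) and -0.77 for Tat (0.0905). Against PBS at 4 h none of the 3 passed, with -1.90 for G6pc (adjusted p = 0.0693), -1.02 for Srebf1 (0.0806) and -0.69 for Tat (0.108). The part of the time of day and of feeding in the Ppara values was not tested.

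Acaa1b, the peroxisomal thiolase, was low at 12 and 16 h in both genotypes and high at 48 h. In SOCS1-/-IFNg-/- livers its log2 level was 10.44 without injection, 10.39 and 9.97 at 4 and 12 h after PBS, and 10.12, 10.20, 9.91, 10.08, 9.61, 8.90, 10.06 and 11.06 over the 8 times after interferon-gamma. In IFNg-/- livers it was 10.96, 10.80 and 10.17 in the same 3 controls and 10.81, 10.74, 10.66, 10.54, 9.56, 10.01, 10.49 and 11.09 over the 8 times. Both 12 h livers and both 16 h livers lay below all 3 controls of their genotype, and both 48 h livers lay above them. The mean response was -0.87 ± 0.16 at 12 h, -1.01 ± 0.16 at 16 h (2.01-fold lower) and 0.62 ± 0.16 at 48 h.

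The PBS liver at 12 h was itself the lowest control of each genotype, so the difference at 12 h narrowed against vehicle of that hour, to -0.37 in SOCS1-/-IFNg-/- and -0.61 in IFNg-/- liver. The 16 h value leaned on the SOCS1-/-IFNg-/- liver, becoming -0.65 without it and -1.36 without the IFNg-/- liver. A second Acaa1b probe set, dimmer at a mean of 8.46 against 10.3, gave -0.69 at 12 h, -0.57 at 16 h and 0.22 at 48 h. Its lowest 2 arrays were the SOCS1-/-IFNg-/- livers, 7.71 at 12 h and 7.70 at 16 h, whereas on the brighter probe set the IFNg-/- liver at 12 h was second lowest. Acaa1b has a near-identical neighbour gene, Acaa1a, and the probes were not checked for which of the pair they read. The Acaa1a probe set had no low mean at 12 or 16 h, with responses of -0.02 ± 0.11 and 0.12 ± 0.11. Its largest response was 0.53 ± 0.11 at 48 h (adjusted p = 0.23, limma).

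Acot1, the cytosolic thioesterase, sat in the middle of the range of genes, with 50% of them below its mean. In SOCS1-/-IFNg-/- livers its log2 level was 6.05 without injection, 6.42 and 6.48 at 4 and 12 h after PBS, and 5.98, 6.10, 6.39, 6.0, 5.62, 5.56, 5.73 and 6.29 over the 8 times after interferon-gamma. In IFNg-/- livers it was 6.26, 6.23 and 5.99 in the controls and 6.07, 6.31, 6.20, 5.99, 5.57, 5.87, 5.88 and 6.37 over the 8 times. The low stretch was longer than for Acaa1b, since both livers at 12, 16 and 24 h lay below every control of their genotype, and by 48 h both were back among them or above. The mean response was -0.64 ± 0.12 at 12 h, -0.52 ± 0.12 at 16 h and -0.43 ± 0.12 at 24 h. Against PBS at 12 h the difference was -0.86 in the SOCS1-/-IFNg-/- liver and -0.41 in the IFNg-/- liver. Acot1 has close paralogs, and how its probes share signal with them was not checked.

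Slc25a20, the mitochondrial acylcarnitine carrier, kept the narrowest range of the 5 genes. In SOCS1-/-IFNg-/- livers its log2 level was 8.53 without injection, 8.63 and 8.67 at 4 and 12 h after PBS, and 8.64, 8.43, 8.48, 8.26, 8.18, 8.14, 8.61 and 8.93 over the 8 times after interferon-gamma. In IFNg-/- livers it was 8.74, 8.71 and 8.53 in the controls and 8.55, 8.65, 8.59, 8.53, 8.31, 8.48, 8.78 and 8.94 over the 8 times. As with Acaa1b, both livers at 12 and 16 h lay below the controls of their genotype and both at 48 h above them. The mean response was -0.39 ± 0.09 at 12 h, -0.33 ± 0.09 at 16 h and 0.30 ± 0.09 at 48 h. Against PBS at 12 h the difference was -0.49 in the SOCS1-/-IFNg-/- liver and -0.22 in the IFNg-/- liver, where the 16 h and control arrays nearly met (8.48 against 8.53).

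Acaa1b, Acot1 and Slc25a20 are thus the 3 of 5 members with both 12 h livers below all controls of their genotype, a pattern that 12.5% of all genes showed and that follows from how these 3 were selected. The same 3 met it at 16 h, where 6.76% of genes did, and Acot1 alone met it at 24 h, where 7.2% did. At 48 h Acaa1b and Slc25a20 were the 2 members with both livers above all controls, as 7.31% of genes were. The responses at these times share the 6 control arrays.

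G0s2, the inhibitor of lipolysis, followed another course, low within 0.5 h and back at control level by 12 h. In SOCS1-/-IFNg-/- livers its log2 level was 7.32 without injection, 7.52 and 7.81 at 4 and 12 h after PBS, and 6.53, 6.44, 6.49, 6.33, 7.78, 7.95, 7.86 and 7.39 over the 8 times after interferon-gamma. In IFNg-/- livers it was 7.59, 7.67 and 7.15 in the controls and 6.85, 6.19, 6.33, 7.70, 7.39, 8.18, 7.16 and 7.56 over the 8 times. Both genotypes were low from 0.5 to 2 h, and at 4 h they parted: the SOCS1-/-IFNg-/- liver was still at its lowest and the IFNg-/- liver had returned to the level of the controls.

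The mean response of G0s2 was -0.82 ± 0.28 at 0.5 h, -1.19 ± 0.28 at 1 h (2.28-fold lower), -1.10 ± 0.28 at 2 h and 0.55 ± 0.28 at 16 h. No PBS liver was taken before 4 h, so the 0.5 to 2 h values have no vehicle of their own hour. At 4 h the SOCS1-/-IFNg-/- liver read 1.37 below the IFNg-/- liver on the log2 scale, with the other 10 pairs between -0.32 and 0.71, and 5 of 8251 genes had a lower difference in that pair. Against PBS at 4 h the difference was -1.19 in the SOCS1-/-IFNg-/- liver and 0.04 in the IFNg-/- liver. The 4 h mean of -0.50 ± 0.28 became 0.24 without the SOCS1-/-IFNg-/- array and -1.23 without the IFNg-/- array.

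G0s2 was the 1 member with both livers below all controls at 0.5 h (5.58% of genes) and at 1 h (7.83%). At 2 h Ppara met the same criterion beside G0s2, 2 of 5 members against 13% of genes, but the SOCS1-/-IFNg-/- liver differed from its lowest control by less than the second decimal for Ppara. At 16 h G0s2 was the only member above all controls in both genotypes, as 7.44% of genes were.

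The 4 h difference between the genotypes lay outside the range of the other 10 pairs in 2 of 5 members, Ppara and G0s2. That was so for 39.2% of all genes. The 4 h difference was -0.47 for Acaa1b, 0.01 for Acot1 and -0.27 for Slc25a20, each within the range of the other pairs, and the median over all genes was -0.08.

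**Figure D2:**
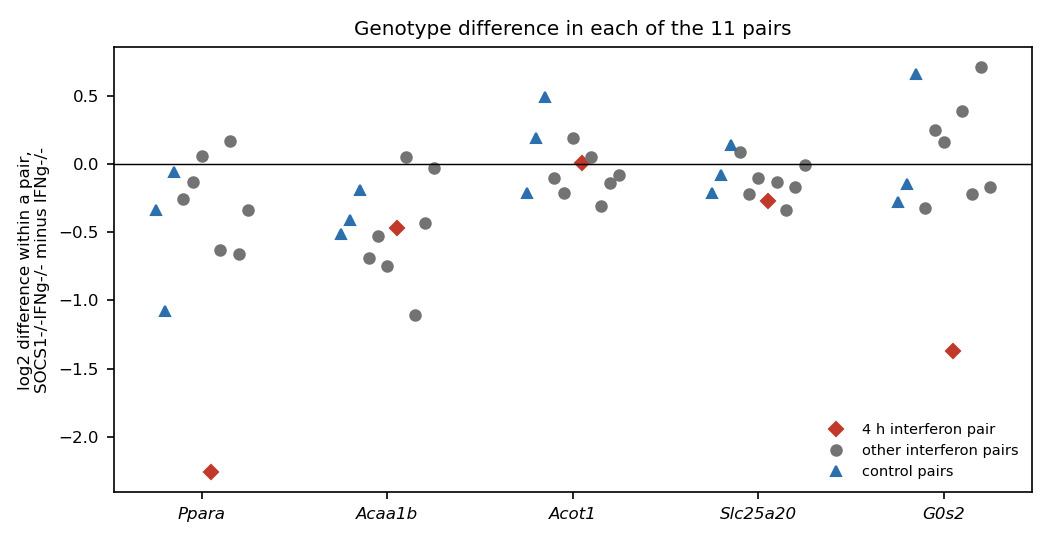
The y axis gives the log2 difference SOCS1-/-IFNg-/- minus IFNg-/- within each of the 11 conditions for every member (x axis), with the 4 h interferon pair as red diamonds, the other 7 interferon pairs as grey circles and the 3 control pairs as blue triangles. The 4 h pair lies at -2.26 for Ppara and -1.37 for G0s2, below their other pairs, and among the other pairs for the remaining 3 genes.

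Over the 22 arrays, Acaa1b, Acot1 and Slc25a20 varied together and Ppara did not follow them closely. Pearson r was 0.83 between Acaa1b and Slc25a20 (Spearman rho 0.74), 0.67 between Acot1 and Slc25a20 (rho 0.57) and 0.66 between Acaa1b and Acot1 (rho 0.51). Without the 2 arrays farthest from the median of the first gene, these became 0.75, 0.53 and 0.53. The 3 genes had been selected on a shared low point at 12 h, which enters these values. Ppara correlated with the other 4 members at 0.11 to 0.39, and G0s2 correlated with the 3 target genes at -0.28 to 0.01, where the value with Slc25a20 changed to 0.30 without the 2 farthest arrays. The arrays share treatment, time and genotype, so these correlations describe the 22 livers only.

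The genes closest in profile to each member were taken as the 3 with the highest Pearson r over the 22 arrays. For Acaa1b they were Abcd3 (r = 0.91, rho 0.93), a transporter of the peroxisomal membrane, Ces1d (0.86, rho 0.79), a carboxylesterase, and Hsd17b4 (0.84, rho 0.84), a peroxisomal β-oxidation enzyme. Abcd3 was also nearest to Slc25a20 (r = 0.86, rho 0.81), beside Cd59a (0.86, rho 0.72), a complement regulator, and Abcb4 (0.84, rho 0.73), the phospholipid exporter of the bile canaliculus. For Acot1 they were Inmt (r = 0.83, rho 0.83), a methyltransferase, Mme (0.81, rho 0.79), the peptidase neprilysin, and Gsto1 (0.77, rho 0.73), a glutathione transferase.

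G0s2 was closest to Hes1 (r = 0.88, rho 0.85), a transcriptional repressor downstream of Notch, Zbtb48 (0.78, rho 0.78), a zinc finger protein, and Rgs2 (0.77, rho 0.80), a regulator of G protein signalling. Ppara was closest to Fzd4 (r = 0.81, rho 0.75), a Wnt receptor, Med20 (0.80, rho 0.67), a subunit of Mediator, and Npc1 (0.79, rho 0.67), which exports cholesterol from lysosomes. The values for Ppara leaned on its extreme arrays: without the 2 farthest from its median they were 0.66, 0.60 and 0.54, whereas those for G0s2 were 0.84, 0.78 and 0.75.

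The wider pathway was read from 10 lists covering 136 genes, of which 94 were measured and 89 were not members. Few of them passed an adjusted p of 0.05 at any time. At 0.5 h 0 of 89 passed, against 0.0% of all genes by limma (478 genes had a p under 0.05 before adjustment), and at 1 h 0 of 89 passed, against 0.158%. At 2 h 1 of 89 rose, against 1.66% of genes called. At 4 h 2 rose and 1 fell, against 5.03%, and at 12 h 1 fell, against 1.42%. None of the 89 passed at 16 h (0.448% of genes), at 24 h (0.17%) or at 48 h (0.0121%). Against vehicle of the same hour 0 of 89 passed at 4 h (1.36% of genes) and 0 of 89 at 12 h (0.109%).

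The median over all 10 lists together leaned below that of all genes at 12 and 16 h and above it at 48 h. Not every list did so: nuclear receptors, their partners and coregulators had a median of 0.03 at 16 h and -0.05 at 48 h. At 12 h 71 of the 89 genes had a response below 0, with a median of -0.13 against -0.03 over all genes, and at 16 h 66 did, with a median of -0.08 against 0.00. Against PBS at 12 h the 12 h lean was smaller, with 67 of 89 below 0 and a median of -0.09 against -0.01. Vehicle livers leaned the same way with no cytokine, since PBS at 12 h minus PBS at 4 h had 66 of 94 pathway genes below 0 and a median of -0.07 against -0.01. At 48 h 58 of 89 were above 0, with a median of 0.06 against 0.00. From 0.5 to 2 h the median was between -0.03 and -0.01 and at 4 h it was -0.07.

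Peroxisomal β-oxidation held the 1 pathway gene that fell at 12 h. Abcd3, which carries acyl-CoA into the peroxisome, fell by 0.64 ± 0.13 at 12 h (adjusted p = 0.0182, limma). In SOCS1-/-IFNg-/- livers it read 10.84 without injection, 11 and 10.65 after PBS and 9.94 at both 12 and 16 h after interferon-gamma. In IFNg-/- livers it read 11.06 without injection, 11.05 and 10.78 after PBS, 10.57 at 12 h and 10.76 at 16 h after interferon-gamma. The call was lost without the SOCS1-/-IFNg-/- untreated, PBS 12 h or interferon-gamma 12 h array (adjusted p up to 0.633) and without both untreated arrays (0.075). The 12 h SOCS1-/-IFNg-/- array is the one with the highest Gapdh 3′ minus 5′ difference. Without it the 12 h response rested on the IFNg-/- array of that hour alone. It was then -1.16 for Acaa1b, -0.67 for Acot1 and -0.38 for Slc25a20, against -0.87, -0.64 and -0.39 with both arrays. The part of RNA quality in the 12 h values was not tested.

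Of the 11 measured peroxisomal genes that are not members, 10 were below 0 at 12 h (median -0.23) and 10 at 16 h (median -0.25), while 8 were above 0 at 48 h (median 0.10). Against PBS at 12 h 9 of 11 were below 0 with a median of -0.12, and PBS at 12 h minus PBS at 4 h had 10 of 12 below 0, Acaa1b included, with a median of -0.18. Ehhadh, the peroxisomal bifunctional enzyme, had -0.61 ± 0.21 at 16 h (adjusted p = 0.381), and Abcd2, a second acyl-CoA transporter, had -0.52 ± 0.17 at 12 h (adjusted p = 0.18), without passing. Mitochondrial β-oxidation had a median of -0.19 at 12 h with 13 of 15 genes below 0, among them Hadh at -0.37 ± 0.12 (adjusted p = 0.193). The 1 mitochondrial call, Acadvl at 4 h (-0.30 ± 0.08, adjusted p = 0.0355), came from a dim probe set with levels of 3.77 to 4.26, and its second probe set gave an adjusted p of 0.974.

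The cytochromes of ω-oxidation, classic markers of PPARα activity in mice, showed the widest swings and did not pass. Cyp4a10 read 5.40 in the SOCS1-/-IFNg-/- liver and 6.31 in the IFNg-/- liver at 0.5 h, below all controls of each genotype, which were 7.82, 8.81 and 8.89 in SOCS1-/-IFNg-/- and 6.54, 7.42 and 7.77 in IFNg-/- livers. Its response there was -2.02 ± 0.44 and that of Cyp4a14 was -2.23 ± 0.52 (adjusted p = 0.369 for each). Against the control mean of its genotype, the SOCS1-/-IFNg-/- liver was lower by 3.10 for Cyp4a10 and 3.26 for Cyp4a14. The IFNg-/- liver was lower by 0.93 and 1.20. No PBS liver was taken at 0.5 h, and PBS livers read above untreated ones by 1.04 ± 0.47 and 1.42 ± 0.56 (adjusted p = 0.41 and 0.354, limma). At 12 h Cyp4a14 read 6.71 in the SOCS1-/-IFNg-/- liver and 4.83 in the IFNg-/- liver, with controls of 7.23 to 9.36 and of 5.79 to 7.13, and its response was -1.69 ± 0.52 (adjusted p = 0.157). All 5 genes of the list were below 0 at 12 and 16 h and above 0 at 48 h. The Cyp4a genes are near copies of one another, and their probes may share signal.

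Against the 6 control arrays, Pnpla2 and Cpt1a were called higher at 4 h and Pdk4 at 2 h, an hour without a PBS liver. Pnpla2, the lipase that G0s2 inhibits, rose by 0.46 ± 0.12 at 4 h (adjusted p = 0.0313), reading 9.12 in the SOCS1-/-IFNg-/- liver and 8.63 in the IFNg-/- liver, against 8.34 to 8.44 and 8.33 to 8.60 in their controls. Cpt1a, which forms the acylcarnitines that Slc25a20 carries, rose by 0.54 ± 0.14 at 4 h (adjusted p = 0.0363), with 10.35 in the SOCS1-/-IFNg-/- liver and 10.34 in the IFNg-/- liver. The IFNg-/- liver after PBS at 4 h read 10.44 for Cpt1a, higher than either, and against vehicle of the same hour neither gene passed. Pdk4, a kinase that spares glucose by shutting off pyruvate oxidation, rose by 0.69 ± 0.15 at 2 h (adjusted p = 0.0318), with 6.67 in the SOCS1-/-IFNg-/- liver and 6.51 in the IFNg-/- liver, against 5.71 to 6.08 and 5.72 to 6.02 in controls.

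These calls, like that of Acadvl, depended on the settings and on single arrays. Without both untreated arrays each was lost (adjusted p = 0.0953 for Pdk4, 0.0827 for Pnpla2, 0.0736 for Cpt1a and 0.0615 for Acadvl, limma). The 4 h calls of Pnpla2, Cpt1a and Acadvl were also lost without both PBS 12 h arrays and with array weights. Pnpla2 lost its call without any 1 of 5 arrays (the SOCS1-/-IFNg-/- untreated, PBS 4 h, PBS 12 h and interferon-gamma 4 h arrays and the IFNg-/- PBS 12 h array, adjusted p up to 0.541). Cpt1a lost it without any 1 of 6 (both untreated arrays, both interferon-gamma 1 h arrays, the SOCS1-/-IFNg-/- interferon-gamma 4 h and the IFNg-/- PBS 12 h arrays, up to 0.366). Pdk4 lost it without any 1 of 5 (both interferon-gamma 2 h arrays, the SOCS1-/-IFNg-/- PBS 4 h array and the IFNg-/- untreated and PBS 12 h arrays, up to 0.529). Acadvl lost it without any 1 of 7, namely either untreated, PBS 12 h or interferon-gamma 4 h array or the SOCS1-/-IFNg-/- PBS 4 h array (up to 0.249).

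Among partners and other targets, large values again did not pass. Lpin1, a coactivator of PPARα and an enzyme of lipid synthesis, had 1.83 ± 0.48 at 2 h (adjusted p = 0.0742), and Nrip1, a corepressor, 0.94 ± 0.28 at 2 h (adjusted p = 0.135). At 2 h Lpin1 read 9.13 in the SOCS1-/-IFNg-/- liver, with controls of 6.36 to 7.11. In the IFNg-/- liver it read 8.53, within controls of 6.43 to 8.67. Fabp5, a fatty acid binding protein, had 0.84 ± 0.23 (adjusted p = 0.0503) and Vnn1, a pantetheinase, 0.82 ± 0.23 (adjusted p = 0.0506) at 4 h, and without the SOCS1-/-IFNg-/- array at 4 h these were 0.62 and 0.48. Retsat, a retinol saturase, had -0.69 ± 0.17 at 12 h (adjusted p = 0.0517). Plin2, a coat protein of lipid droplets, had 0.49 ± 0.17 at 4 h (adjusted p = 0.127), or 0.38 without that array. Thioesterases other than Acot1 differed little: of 4 measured, Acot13 had the largest response, -0.28 ± 0.10 at 12 h (adjusted p = 0.247).

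**Figure D3:**
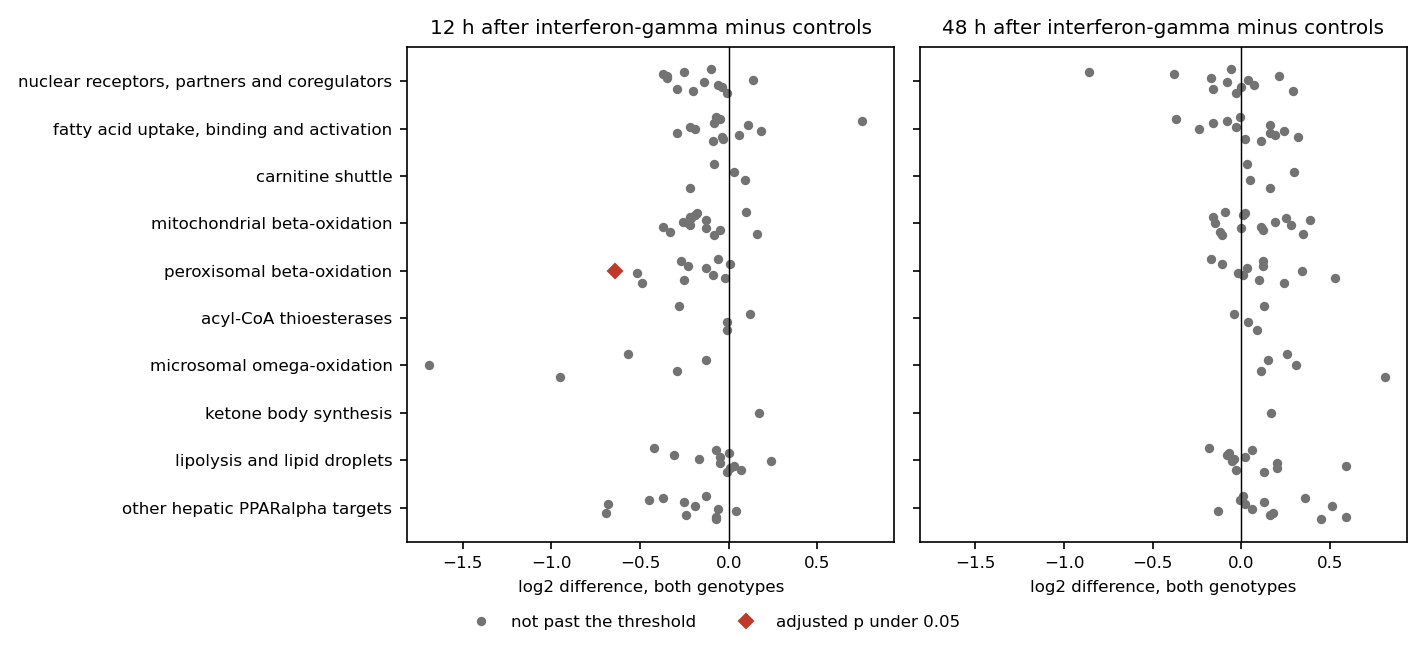
Each point is 1 measured pathway gene that is no member, placed by its log2 difference between interferon-gamma livers of both genotypes and the 6 control livers (x axis) at 12 h on the left and 48 h on the right, with the 10 lists down the y axis, and a red diamond marks an adjusted p under 0.05. Abcd3 at -0.64 is the single call at 12 h, and 71 of 89 points lie below 0 at 12 h, against 58 above 0 at 48 h.

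**Figure D4:**
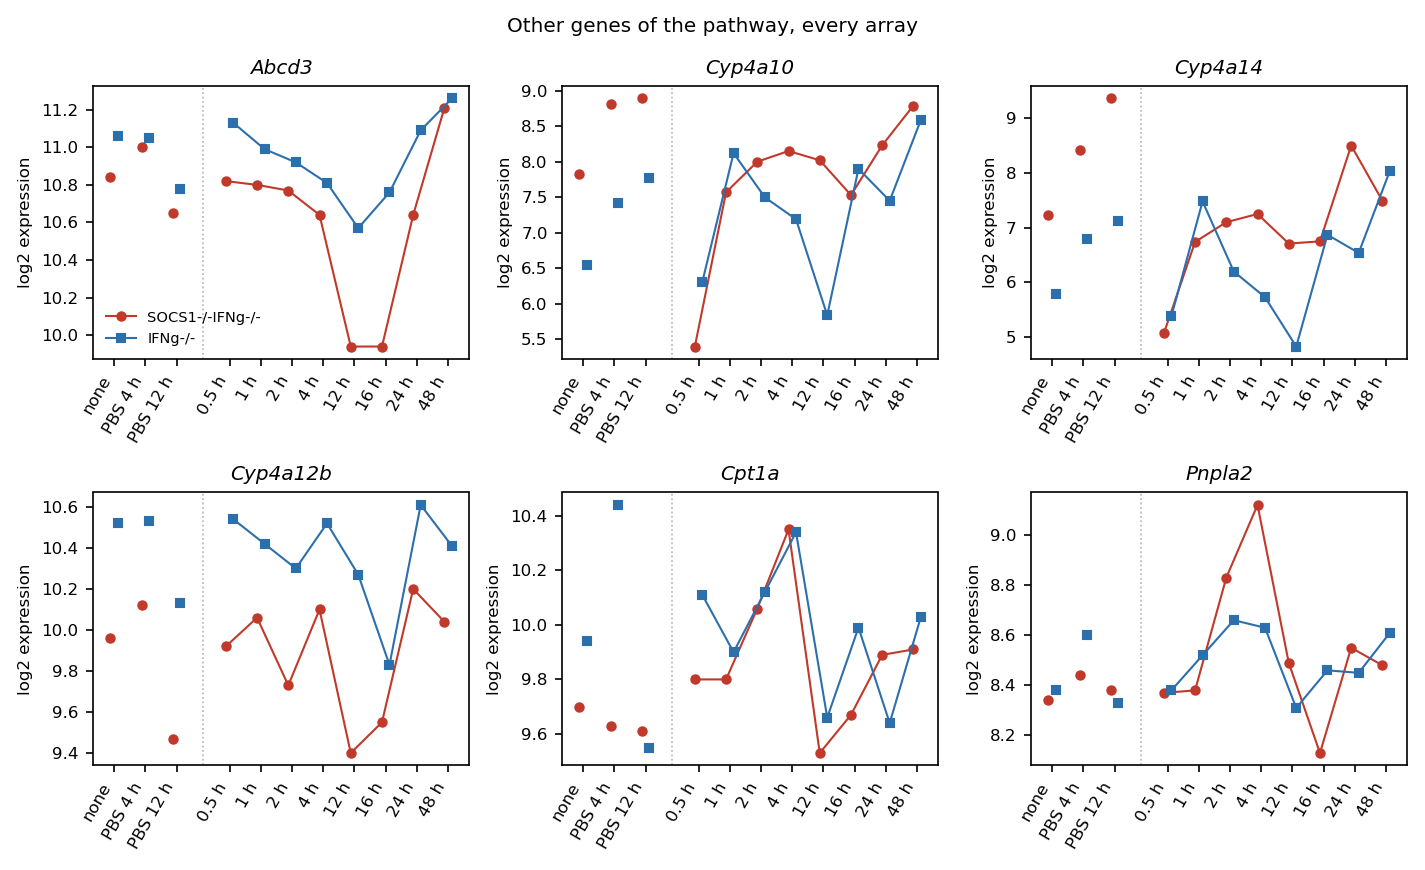
Log2 expression (y axis) of 6 pathway genes in every liver, with controls left of the dotted line and hours after interferon-gamma to the right (x axis, not to scale), red circles for SOCS1-/-IFNg-/- and blue squares for IFNg-/-, 1 array per point. Abcd3 reads 9.94 at 12 and 16 h in SOCS1-/-IFNg-/- livers, Cyp4a10 and Cyp4a14 are low at 0.5 h in both genotypes, Cyp4a12b is lower in SOCS1-/-IFNg-/- throughout, and Cpt1a and Pnpla2 peak near 4 h.

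No member passed the test between vehicle and untreated livers. For PBS against untreated livers 0 of 5 members passed, against 0.0242% of genes, and the widest difference was that of Acaa1b, -0.37 ± 0.17 (adjusted p = 0.432, limma), which had the opposite sign, 0.06, on the second probe set. For PBS at 12 h against PBS at 4 h 0 of 5 passed, against 0.0242% of genes, with Acaa1b again widest at -0.53 ± 0.20 (adjusted p = 1.0, limma).

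The genotypes were then compared over all 11 pairs, which does not use the response averaged over genotypes that selected Acaa1b, Acot1 and Slc25a20. For Ppara and G0s2 the values behind the choice are not recorded. Whether their genotype comparisons, here, below and in the 4 h pair above, are independent of that choice is therefore not known. Acaa1b was lower in the SOCS1-/-IFNg-/- liver in 10 of 11 pairs, by 0.45 ± 0.09 on the log2 scale, and did not pass (adjusted p = 0.0617, limma). The call lay at the edge of the threshold: it was made with array weights (-0.42, adjusted p = 0.0284), with quantile normalization (-0.47, adjusted p = 0.0438) and without the 12, 16 or 48 h pair (adjusted p = 0.0365, 0.0169 and 0.0347). The second probe set gave -0.27 with an adjusted p of 0.103, and the fit without the condition as a block gave -0.45 with an adjusted p of 0.999. Ppara was lower in 9 of 11 pairs, by 0.50 ± 0.18 (adjusted p = 0.432), which includes the 4 h pair, and Slc25a20 in 9 of 11, by 0.11 ± 0.05 (adjusted p = 0.522). Acot1 and G0s2 had 0.00 ± 0.06 (adjusted p = 0.999) and -0.02 ± 0.14 (adjusted p = 0.992), each with the lower value in the SOCS1-/-IFNg-/- liver in 6 of 11 pairs.

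In all, 0 of 5 members passed for genotype, against 0.218% of genes. Of the 94 pathway genes 1 passed, Cyp4a12b, a cytochrome of ω-oxidation, which was lower in SOCS1-/-IFNg-/- livers by 0.51 ± 0.05 (adjusted p = 0.000756, limma). It kept the call without each of the 11 pairs in turn, and lost it with a trended robust variance (adjusted p = 0.793) and without the condition as a block (0.116). Cyp4a14 and Cyp4a10 of the same list went the other way without passing. They were higher in SOCS1-/-IFNg-/- livers by 0.96 ± 0.25 (adjusted p = 0.193, limma) and 0.65 ± 0.21 (adjusted p = 0.329). Over the pathway 71 of 94 genes were below 0, with a median of -0.05 against 0.00 over all genes.

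Whether the genotype difference itself changed after interferon-gamma was asked by subtracting the mean of the 3 control pairs. From 0.5 to 4 h 0 of 5 members and 0.0% of all genes passed, with Ppara at -0.15 ± 0.45 and G0s2 at -0.40 ± 0.36 (adjusted p = 0.998 each). From 12 to 48 h 0 of 5 and again 0.0% passed, with Acot1 the nearest at -0.28 ± 0.15 (adjusted p = 0.526). Before adjustment 287 genes in the early and 938 in the late comparison had a p under 0.05. The early comparison averages 4 pairs, so a difference seen in the 4 h pair alone is diluted in it.

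Markers of other liver cells were read beside these courses. The Kupffer cell and macrophage markers, 8 of 10 measured, averaged 6.18 to 6.89 in SOCS1-/-IFNg-/- and 6.47 to 6.91 in IFNg-/- livers, and the lowest array of each genotype was the 16 h one, where Acaa1b and Slc25a20 were also low. They read 6.25 at 12 h in the SOCS1-/-IFNg-/- liver and 6.62 in the IFNg-/- liver, against 6.57 to 6.81 and 6.58 to 6.73 in their controls. The stellate cell markers, 7 of 10 measured, read 6.38 at 12 h and 6.33 at 16 h in SOCS1-/-IFNg-/- livers, against 6.48 to 6.61 in their controls, and 6.55 and 6.40 in IFNg-/- livers, against 6.48 to 6.64. Among them Reln fell by 0.74 at 16 h (adjusted p = 0.0304, limma), when 0.448% of all genes were called. Of the 7 stellate markers 3 were above and 4 below 0 there. At 4 h 1 hepatocyte marker was called higher, 1 lower, and 1 Kupffer cell and macrophage marker higher, against 5.03% of genes. Against PBS at 4 h 1 Kupffer cell and macrophage marker was called higher, against 1.36% of genes. The hepatocyte markers, 9 of 10 measured, were lowest at 24 h in both genotypes, at 10.45 in the SOCS1-/-IFNg-/- and 10.60 in the IFNg-/- liver. The neutrophil markers, 9 of 10 measured, were highest at 12 h in SOCS1-/-IFNg-/- livers, at 5.8, and at 2 h in IFNg-/- livers, at 5.58. Their 12 h responses over both genotypes ran from -0.18 to 0.73, with 5 above and 4 below 0, a median of 0.00 and no call. The other 4 lists varied less: over all arrays the endothelial markers (7 of 10 measured) averaged 5.60 to 5.89, the lymphocyte markers (9 of 12) 5.15 to 5.34, the cholangiocyte markers (5 of 7) 4.00 to 4.24 and the adipocyte markers (6 of 8) 4.96 to 5.22. The part of these shifts in the members' values was not tested.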

How the data were processed

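Liver RNA of 22 samples was hybridised to 22 Affymetrix arrays, 1 per genotype and condition. The deposited values are log2 expression per probe set, already normalized between arrays by the authors. Per the submitters' processing notes the affy package was used, and how background, normalization and probe summaries were handled is not given in the sources used here. Per the labels' protocols RNA was extracted with Trizol, cleaned with RNeasy and labelled with biotin. The scale was read from the values, 1.73 to 13.5, and the number of arrays limits the precision.

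Of 12488 probe sets, 66 controls were left out and 10833 carried 1 symbol in the platform table; the brightest by mean stood for each of 8251 genes. The members, the lists, the tests and the rule for naming genes were chosen with earlier results of these data known. Named are all members, listed genes past the threshold, up to 4 genes per list by largest response, paralogs, 3 profile neighbours per member and a few clock and feeding genes; Tat and Reln were named after their values were seen.

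Tests used limma 3.58.1 in R 4.3.3 with Benjamini-Hochberg adjustment over 8251 genes and a threshold of 0.05. Responses came from an additive model of condition and genotype (10 residual degrees of freedom), in which the 2 genotypes stand in for replicates. Genotype differences came from the 11 within-condition differences, as the mean of 3 phase means (pairs of controls, of 0.5 to 4 h and of 12 to 48 h) (8 residual degrees of freedom). Each fit was tested on simulated data. Control conditions, weights, variance model, normalization, brightness, probe set, single arrays and pairs were varied.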

Additional observations from a re-analysis of the deposited data

How the results depend on the processing

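Of 1485 recomputed time values of the members, 1022 equalled the reported value, most of them because the setting or the array left out does not enter that value. Of the 463 that differed, 28 moved by more than the residual SD, 26 of them in fits that left out 1 array. Ppara at 4 h became 0.40 without the SOCS1-/-IFNg-/- array and -1.54 without the IFNg-/- array. The number of pathway genes called also varied. Without both PBS 12 h arrays the counts were 0 at 4 h (3 in the report), 3 at 12 h (1) and 1 at 16 h (0). Without both untreated arrays they were 0 at 4 h and 0 at 12 h. Without both 4 h interferon-gamma arrays, an alternative chosen after seeing the data, they were 3 at 2 h (1) and 3 at 12 h. Array weights gave 4 at 2 h, 0 at 4 h, 3 at 12 h, 1 for PBS minus untreated (0), 2 for genotype (1) and 2 for the late genotype difference (0). Quantile normalization gave 5 at 12 h, 1 at 16 h and 3 for genotype. With bright genes alone there were 0 calls at 2 h, 3 calls at 12 h and 1 call at 16 h, and second probe sets gave 1 call at 48 h (0). For genotype, a trended robust variance gave 0 and the fit with no replicate block gave 0, so pairing by condition changed the call of Cyp4a12b and of no other pathway gene in that comparison. The cause of these changes was not tested.

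Leaving out 1 array gave between 0 and 3 calls at 2 h, 0 and 9 at 4 h, 0 and 7 at 12 h, 0 and 7 at 16 h, and 0 to 4 against PBS at 4 h, 0 to 1 for PBS minus untreated and for PBS 12 h minus 4 h, and, leaving out 1 pair, 1 to 3 for genotype.

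Member differences near 0 turned their sign. The PBS minus untreated difference of Acaa1b was 0.06 with its second probe set. Without both PBS 12 h arrays, also added after seeing the data, the genotype difference of Acot1 was -0.05, the early difference was 0.06 for Ppara and 0.02 for Slc25a20, and the late one was 0.08 for Acaa1b. Array weights gave 0.15 for G0s2 over all pairs, 0.00 for Ppara early, -0.09 for Ppara late and -0.23 for G0s2 late, and quantile normalization 0.14 for Acaa1b late. The Acaa1b genotype difference passed with array weights (-0.42) and quantile normalization (-0.47).

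Leaving out 1 array or pair gave these ranges. For genotype, Acaa1b ran from -0.50 to -0.37, Acot1 from -0.05 to 0.06 and G0s2 from -0.12 to 0.09. For PBS minus untreated, Acot1 ran from -0.01 to 0.27, G0s2 from -0.11 to 0.27, Ppara from -0.28 to 0.04 and Slc25a20 from -0.07 to 0.07. For PBS 12 h minus 4 h, Acot1 ran from -0.37 to 0.18, G0s2 from -0.49 to 0.27 and Slc25a20 from -0.21 to 0.07. Early genotype differences ran from -0.44 to 0.39 for Ppara and from -0.16 to 0.02 for Slc25a20, and late ones from -0.15 to 0.23 for Acaa1b, from -0.08 to 0.39 for G0s2 and from -0.16 to 0.34 for Ppara. The direct repeat matched 0 members with 1 or 0 mismatches. Signal near background limits dim genes such as Acadvl and Abcd2.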
